A study of Mus musculus with 6 samples.

Results

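Otoconia and the acellular membranes of the vestibular organs are built from a small set of secreted and membrane proteins, and the 9 mouse genes Oc90, Otol1, Otop1, Nox3, Otog, Otogl, Tecta, Tectb and Ceacam16 encode a large part of that set. They were chosen by gene symbol for what their proteins are known to do, and each matched 1 gene among the 52636 genes of the deposited count table. Bulk RNA-seq was performed on vestibular epithelia of male 129S1/SvImJ mice aged 2 to 4 months. The Control group was 3 animals on plain drinking water, and the IDPN group was 3 animals given 3,3'-iminodipropionitrile, a nitrile that poisons inner ear hair cells (HCs), at 30 mM in the water for 8 weeks. Each library came from 1 animal, whose 2 utricles and 6 cristae were cleaned of neighbouring tissue and pooled, so organ and cell type were not separated.

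In the utricle, HC bundles project into an otoconial membrane that carries otoconia, crystals of calcium carbonate around a protein core, whereas in the cristae they project into a gelatinous cupula with no crystals. Both structures hold no cells: their proteins are secreted by the epithelium, largely by non-sensory cells, and mice that lack Otop1 or Nox3 form no otoconia and lose the sense of gravity. The tectorins and CEACAM16 are best known from the tectorial membrane of the cochlea, an organ that was not sampled here.

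Of the 9 genes, Nox3 was downregulated after IDPN, with a mean of 53.1% of the Control level. Otog, the most counted of them, was lower in every IDPN library in DESeq2 normalized counts, with an adjusted p under the threshold and a change smaller than the fold threshold. The other 7 genes did not pass the test, and among them Otol1, which encodes the collagen-like scaffold protein of otoconia, had a mean of 121% of Control. A gene was called when its adjusted p was under 0.05 and its fold change was above 1.5, which is 0.585 on the log2 scale. By this rule 1 of the 9 genes was called lower and 0 were called higher with DESeq2, whereas 3.42% of the 17650 genes tested were called lower and 2.32% higher (5.75% either way). The edgeR quasi-likelihood test called 0 of the 9, against 3.21% of 16310 genes (2.19% lower and 1.02% higher), and 4 of the 9 (Oc90, Otop1, Nox3 and Otog, all lower) had an unadjusted p under 0.05 with each tool, against 16.9% of all genes with DESeq2 and 17.7% with edgeR. With total-count size factors in DESeq2, 0 of the 9 were called, against 4.92% of all genes tested (1.28% lower and 3.64% higher).

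The reference sequences directly upstream of Nox3 and Otog are shown because these were the only 2 of the 9 genes with a DESeq2 adjusted p under 0.05. Each is the 250 bases before the RefSeq transcription start, 5′ to 3′ on the strand of the gene, in the GRCm38 assembly, which is of the C57BL/6J strain and not of 129S1/SvImJ. The Nox3 window is chr17:3696262-3696511 on the minus strand and the Otog window chr7:46240737-46240986 on the plus strand. Capitals mark ACAAAG, the core letters bound by SOX factors, and CCAAT, in either orientation, so that CCAAT on the other strand reads ATTGG.
Nox3: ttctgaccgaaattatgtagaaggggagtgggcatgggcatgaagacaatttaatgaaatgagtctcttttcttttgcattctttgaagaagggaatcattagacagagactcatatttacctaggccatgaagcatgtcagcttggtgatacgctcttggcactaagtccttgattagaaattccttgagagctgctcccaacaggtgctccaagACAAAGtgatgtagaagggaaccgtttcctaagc
Otog: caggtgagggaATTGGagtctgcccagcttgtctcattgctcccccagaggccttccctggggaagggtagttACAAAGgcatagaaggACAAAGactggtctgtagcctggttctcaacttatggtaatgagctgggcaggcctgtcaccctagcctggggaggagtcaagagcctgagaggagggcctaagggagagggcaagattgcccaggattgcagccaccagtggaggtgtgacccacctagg
The Nox3 window held 1 ACAAAG and no CCAAT, and the Otog window held 2 ACAAAG and 1 CCAAT. Neither window held the TATA box letters TATAAA, searched in the same way. Over 32851 RefSeq windows of this length, 16.5% held ACAAAG, 33.8% held CCAAT and 12.4% held TATAAA, and these matches are a description of the letters only. RefSeq entries were matched for 6 of the 9 genes. The Tecta window nearest the annotated gene start also held 2 ACAAAG. Its other window and those of Otol1, Otop1 and Tectb held none.

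The 6 libraries held between 40474847 and 43566332 estimated counts. The normalized counts below were divided by DESeq2 size factors between 0.825 and 1.21, which were lowest in Control 1 and Control 2. Scaling by total counts in their place raised the median log2 fold change of well counted genes by 0.25, so a gene near that size can change its direction between scalings, and the log2 fold change of each of the 9 genes is given on both scales. All libraries carry 1 batch label. The title codes place the 3 Control animals under 1 stem and the IDPN animals under 2 others, IDPN 1 alone under the first and IDPN 2 and IDPN 3 under the second. What these stems stand for is not stated, and it cannot be told apart from IDPN exposure.

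The expression order of the 9 genes in Control was taken from CPM per kilobase of exon (CPM/kb, counts scaled to the library total and to exon length), which allows genes of different length to be compared. Nox3 was the highest at 245 to 303, followed by Otog at 94.0 to 133, Otol1 at 36.9 to 46.7 and Tectb at 28.2 to 50.6. Otogl (5.46 to 12.5), Otop1 (5.30 to 8.48), Tecta (3.87 to 6.76) and Oc90 (3.18 to 6.06) formed a lower tier, and Ceacam16 was the lowest at 0.144 to 0.663. Neighbours in this order overlapped between Otol1 and Tectb and at each step from Otogl to Oc90, and did not overlap between Nox3 and Otog, Otog and Otol1, Tectb and Otogl, or Oc90 and Ceacam16. Together the 9 genes took 0.154% to 0.231% of all counts in a library.

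**Figure D1:**
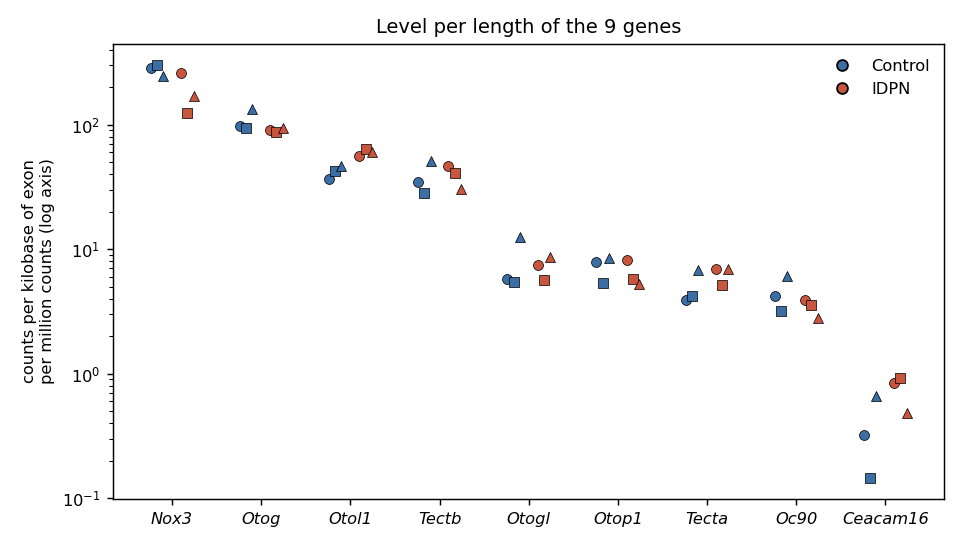
Level of each of the 9 genes in CPM per kilobase of exon (log axis), 1 point per library, Control in blue and IDPN in red, ordered by the Control level. Nox3 and Otog lie at the top, 4 genes form a tier between 3.18 and 12.5 in Control, and all points of Ceacam16 lie below those of the other genes.

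Oc90 encodes otoconin-90, the most abundant protein of the otoconial core. The gene (ENSMUSG00000015001.17) lies on the minus strand of chromosome 15 at 65876053 to 65912397 and had 414, 298 and 447 normalized counts in Control 1, 2 and 3 against 255, 297 and 203 in IDPN 1, 2 and 3. All IDPN libraries were below all Control libraries on this scale, although Control 2 and IDPN 2 differed by less than 1 normalized count. The means were 386 ± 78.2 and 252 ± 46.9 (SD, n = 3), and the log2 fold change of −0.62 (SE 0.24, 95% interval −1.09 to −0.14) had an adjusted p of 0.117 with DESeq2 and was not called. In CPM/kb the groups overlapped, at 4.22, 3.18 and 6.06 in Control and 3.88, 3.55 and 2.82 in IDPN, and with total-count size factors the log2 fold change was −0.39 with an adjusted p of 0.468 (DESeq2).

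Otol1 encodes otolin-1, a secreted collagen-like protein that binds otoconin-90 in the crystal core. The gene (ENSMUSG00000027788.6, chromosome 3, 70007613 to 70028708, plus strand) had 4084, 4474 and 3892 normalized counts in Control and 4123, 5964 and 4930 in IDPN. The groups overlapped through IDPN 1, and the means were 4150 ± 296 and 5006 ± 923 (SD, n = 3). This was a log2 fold change of 0.27 (SE 0.17, 95% interval −0.07 to 0.61), with an adjusted p of 0.464 (DESeq2). In CPM/kb the IDPN libraries, at 55.5, 63.1 and 60.4, were all above the Control libraries, at 36.9, 42.3 and 46.7, and the log2 fold change with total-count size factors was 0.51 with an adjusted p of 0.114 (DESeq2).

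The ratio of the 2 transcripts within a library does not depend on its scaling. Otol1 had 9.874, 15.02 and 8.715 counts per count of Oc90 in Control and 16.2, 20.1 and 24.2 in IDPN. Every IDPN library had a higher ratio than every Control library, with a mean difference of 0.87 on the log2 scale. The nearest were Control 2 at 15.02 and IDPN 1 at 16.2. No test was made of ratios between genes, and how often other gene pairs separate in this way was not counted.

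Otop1 encodes otopetrin-1, a proton channel needed for otoconia to form. The gene (ENSMUSG00000051596.13, chromosome 5, 38275972 to 38304217, plus strand) had 1392, 892 and 1126 normalized counts in Control and 972, 869 and 678 in IDPN. IDPN 1 was above Control 2, and the means were 1137 ± 250 and 840 ± 150 (SD, n = 3). Its log2 fold change of −0.44 (SE 0.21) had an adjusted p of 0.266 with DESeq2 and was not called, and with total-count size factors it was −0.17.

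Nox3 encodes the catalytic subunit of an NADPH oxidase that makes superoxide in the inner ear. The gene (ENSMUSG00000023802.4) lies on the minus strand of chromosome 17 at 3635240 to 3696261 and has 1 annotated transcript of 13 exons. Normalized counts were 26263, 26563 and 16910 in Control and 15901, 9722 and 11386 in IDPN. Control 1 and Control 2 were high and close to each other, Control 3 was far below them, and IDPN 1, the only library under its title stem, was only slightly below Control 3. The means were 23245 ± 5488 and 12336 ± 3197 (SD, n = 3), and the log2 fold change was −0.91 (SE 0.22, 95% interval −1.35 to −0.48), with an adjusted p of 0.00155 (DESeq2).

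The call of Nox3 rested on the test and on the scaling. With the edgeR quasi-likelihood test the log2 fold change was again −0.91 and the adjusted p was 0.0844. With total-count size factors it was −0.60, with an adjusted p of 0.172 (DESeq2), and in CPM/kb the groups overlapped, at 286, 303 and 245 in Control and 258, 124 and 168 in IDPN. Leaving out Control 2 gave −0.81 with an adjusted p of 0.0607, and leaving out any other single library left Nox3 called, at −1.13 to −0.77 (DESeq2).

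Otop1 and Nox3 are both needed for otoconia to form. Otop1 had 0.0530, 0.0336 and 0.0666 counts per count of Nox3 in Control and 0.0612, 0.0894 and 0.0595 in IDPN, and the groups overlapped. Otol1 per Nox3, a pair picked after its values were seen, was 0.156, 0.168 and 0.230 in Control and 0.259, 0.613 and 0.433 in IDPN. The lowest IDPN ratio was above the highest Control ratio, with a mean difference of 1.17 on the log2 scale.

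**Figure D2:**
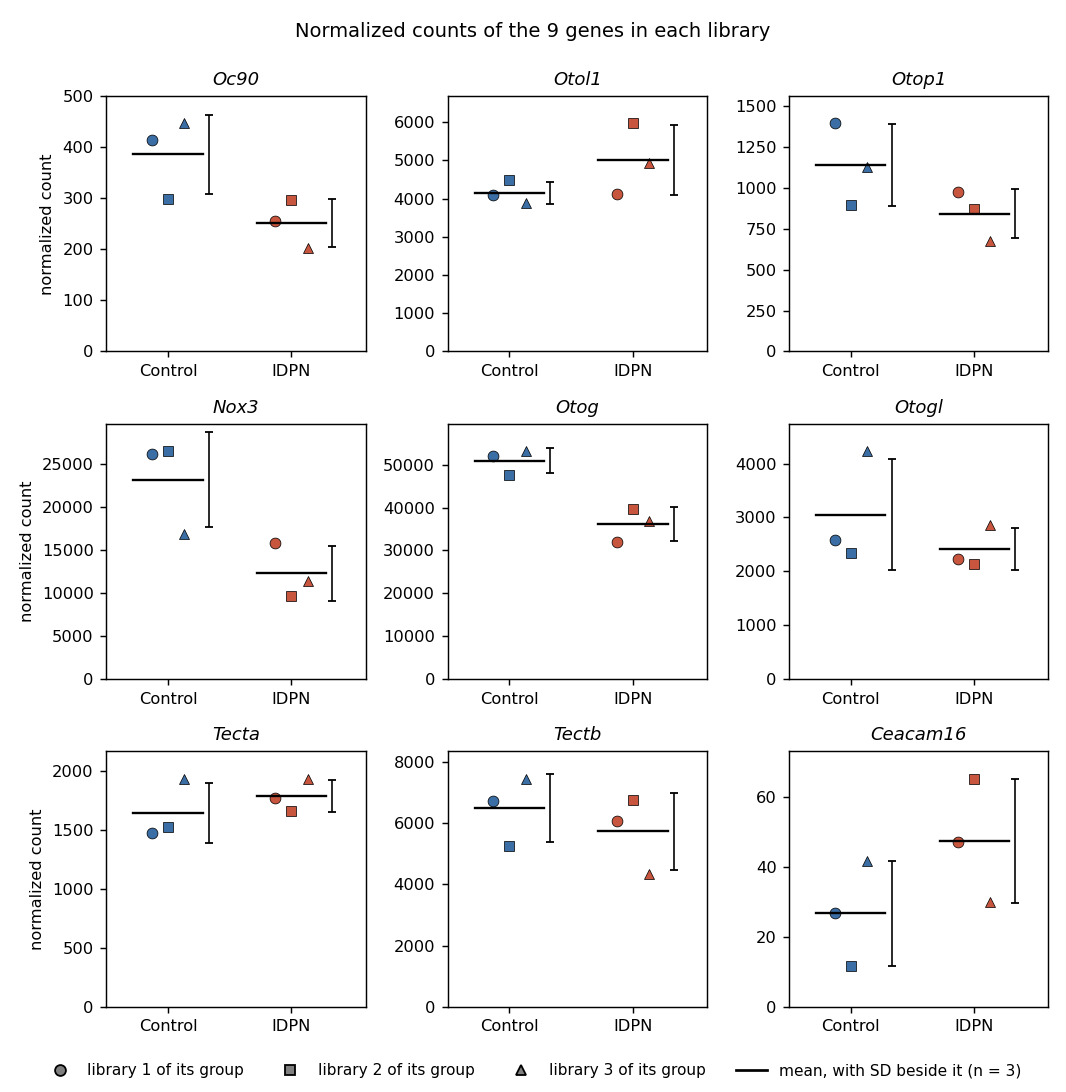
DESeq2 normalized counts of the 9 genes, 1 panel per gene with its own linear axis from 0, with 1 marker per library, a line at the mean and a bar of ± 1 SD beside it (n = 3 per group). On this scale the groups do not overlap for Oc90, Nox3 and Otog, with IDPN lower in each, although they do when scaled by total counts, and they overlap for the other 6 genes.

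Otog encodes otogelin, a large glycoprotein that anchors the otoconial membrane and the cupula to the epithelium. The gene (ENSMUSG00000009487.10) spans 46240987 to 46311434 on the plus strand of chromosome 7. Normalized counts were 52148, 47589 and 53188 in Control and 31989, 39633 and 36852 in IDPN. The replicates were close within each group and the groups were well apart, with means of 50975 ± 2978 and 36158 ± 3869 (SD, n = 3), so that IDPN was at 70.9% of Control. The log2 fold change was −0.50 (SE 0.15, 95% interval −0.79 to −0.20), with an adjusted p of 0.0205 (DESeq2), and the size was below the fold threshold.

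The edgeR adjusted p of Otog was 0.21. With total-count size factors the log2 fold change was −0.26 with an adjusted p of 0.497 (DESeq2), and in CPM/kb Control, at 98.3, 94.0 and 133, overlapped with IDPN, at 89.9, 87.6 and 94.3. The DESeq2 adjusted p was above 0.05 without Control 1 (0.0949), without IDPN 1 (0.147) and without IDPN 3 (0.0738).

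Otogl encodes the otogelin-like protein, a relative of otogelin in the same matrices. The gene (ENSMUSG00000091455.4, chromosome 10, 107760531 to 107912134, minus strand) had 2577, 2341 and 4231 normalized counts in Control and 2231, 2145 and 2862 in IDPN. Control 3 stood above all other libraries, and the remaining 5 lay close together. The log2 fold change of −0.34 (SE 0.23, 95% interval −0.78 to 0.11) had an adjusted p of 0.489 (DESeq2), without Control 3 it was −0.03, and with total-count size factors −0.13. Otogl per Otog was 0.0494, 0.0492 and 0.0796 in Control and 0.0698, 0.0541 and 0.0777 in IDPN, so the groups overlapped in this ratio.

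Tecta encodes alpha-tectorin and Tectb beta-tectorin, zona pellucida domain proteins that polymerize into the matrix of acellular membranes. Tecta (ENSMUSG00000037705.13, chromosome 9, 42329619 to 42399929, minus strand) had 1469, 1519 and 1932 normalized counts in Control and 1768, 1661 and 1927 in IDPN. The groups overlapped almost fully. The log2 fold change was 0.12 (SE 0.17, adjusted p of 0.811 with DESeq2), and its 95% interval spanned 0.861-fold to 1.38-fold, and with total-count size factors it was 0.355 (log2). An antisense gene model overlaps 304 bp of its exons, and reads of the opposite strands cannot be told apart in these libraries.

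Tectb (ENSMUSG00000024979.13, chromosome 19, 55180733 to 55196313, plus strand) had 6731, 5266 and 7453 normalized counts in Control and 6080, 6769 and 4347 in IDPN. IDPN 3 was the lowest library and Control 3 the highest, with the other 4 mixed between them. The log2 fold change was −0.18 (SE 0.20, adjusted p of 0.748 with DESeq2), with a 95% interval of 0.673-fold to 1.16-fold, and it was 0.048 with total-count size factors. Tecta per Tectb was 0.218, 0.289 and 0.259 in Control and 0.291, 0.245 and 0.443 in IDPN, again with overlap.

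Ceacam16 encodes a secreted adhesion protein that binds alpha-tectorin in the tectorial membrane. The gene (ENSMUSG00000014686.8, chromosome 7, 19852097 to 19861299, minus strand) was near the lower end of what could be measured, with 22, 10 and 47 raw counts in Control and 57, 65 and 32 in IDPN. Normalized counts were 26.7, 11.5 and 41.8 in Control and 47.2, 65.3 and 29.9 in IDPN, and the groups overlapped. Its log2 fold change of 0.82 had the largest error of the 9 (SE 0.55, 95% interval −0.27 to 1.90), with an adjusted p of 0.495 (DESeq2), and with total-count size factors it was 0.99. An opposite-strand gene, Gm19345, shares 380 bp of its exons and held 1 to 3 counts per library.

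**Figure D3:**
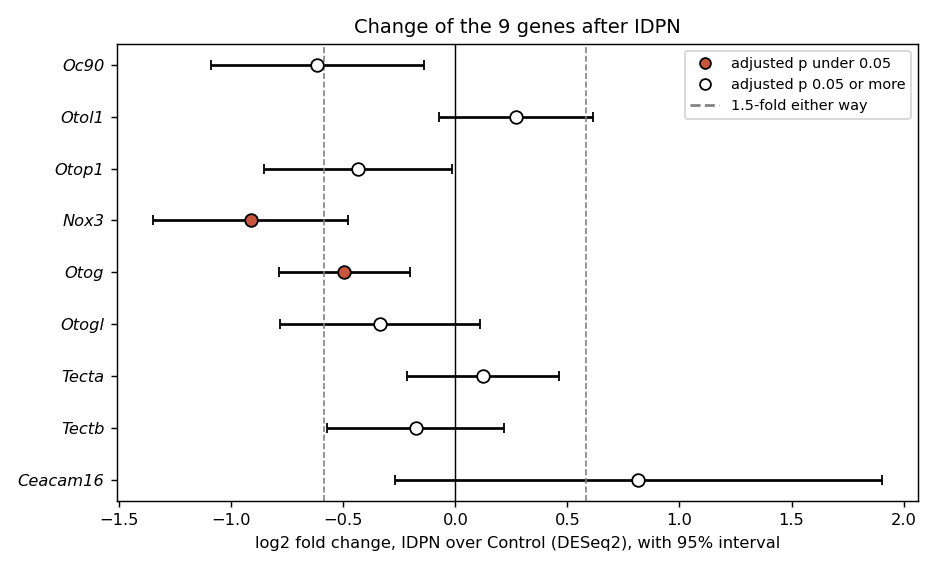
Log2 fold change of IDPN over Control for the 9 genes (DESeq2) with 95% intervals, with filled points for an adjusted p under 0.05 and dashed lines at a 1.5-fold change. Nox3 at −0.91 lies beyond the dashed line, Otog at −0.50 does not reach it, and the intervals of Otol1, Otogl, Tecta, Tectb and Ceacam16 include 0.

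Over the 9 genes the median log2 fold change was −0.34, beside 0.02 over all genes tested, with 6 values below 0 and 3 above 0. The median was −0.13 with total-count size factors, where 5 values were below 0 and 4 above 0, and it was −0.065 without Control 3, which was the highest Control library for 6 of the 9 genes. For 3 of the 9 genes every IDPN library lay below every Control library, and for 0 it lay above in DESeq2 normalized counts, whereas among all genes tested this was so for 11.4% below and 11.1% above (22.5% in all). Scaled by total counts, it was so for 0 of the 9 below and for 1, Otol1, above, against 3.99% below and 19.3% above among the same genes. The DESeq2 adjusted p was under 0.05 at any fold for 2 of the 9, against 6.33% of all genes.

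**Figure D4:**
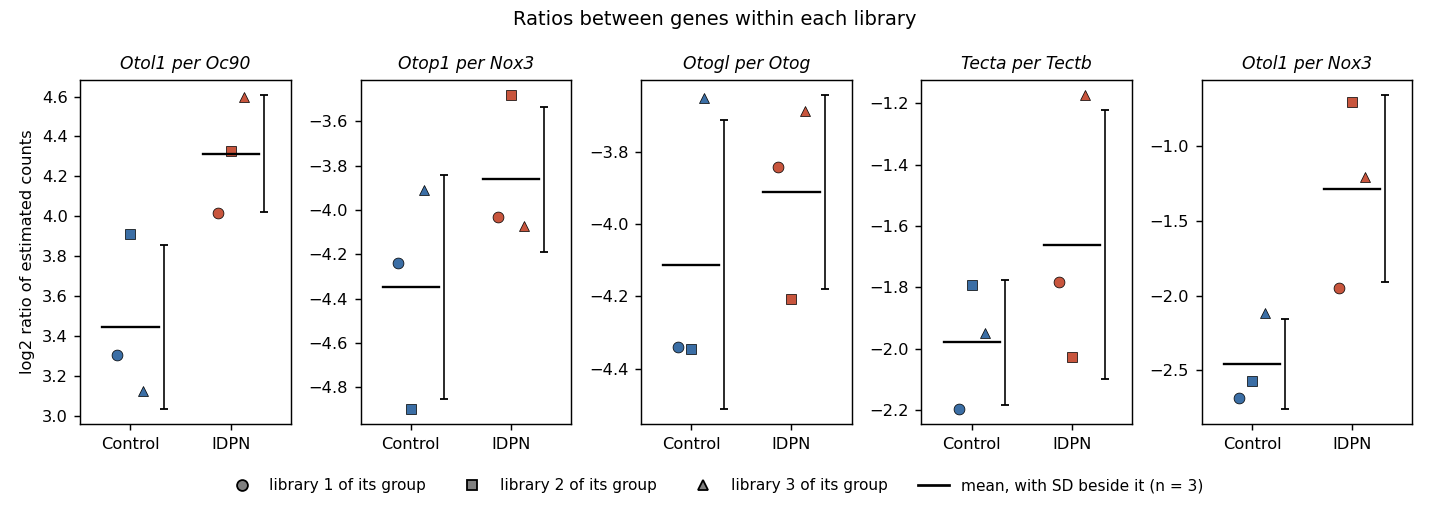
Log2 ratio of estimated counts between 2 genes within each library, 1 panel per pair with its own axis, 1 marker per library, a line at the mean and a bar of ± 1 SD beside it (n = 3 per group). IDPN is above Control without overlap for Otol1 per Oc90 and Otol1 per Nox3, and the groups overlap for the other 3 pairs. The pair Otol1 per Nox3 was picked after its values were seen, so its separation is a description only.

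Genes with related roles were counted from lists of partners and relatives, and not all of them encode proteins of the otoconial membrane or the cupula. Among all genes tested, the shares to set beside each list were 3.42% called lower and 2.32% called higher with DESeq2. An unadjusted p under 0.05 in either direction was found for 16.9% (DESeq2). Of 12 acellular matrix genes, all tested, 2 were downregulated and 0 upregulated with DESeq2, with a median log2 fold change of −0.09. At an unadjusted p under 0.05 there were 4 lower and 0 higher. Otos stands in this list although it encodes otospiralin, a protein of inner ear fibrocytes. Otos had 251200, 260900 and 169700 normalized counts in Control and 84930, 93370 and 94620 in IDPN. The change was −1.32 on the log2 scale (SE 0.18), with an adjusted p of 1.55e-10 (DESeq2), and it was called with edgeR and with total-count size factors too. Zpld1, whose product is a protein of the cupula, had 19540, 19300 and 12100 in Control and 8246, 12650 and 10420 in IDPN, with a log2 fold change of −0.70 (SE 0.22) and an adjusted p of 0.0245 (DESeq2). IDPN 2 was above Control 3 for Zpld1, and neither edgeR nor total-count scaling called it. Otoa, which encodes otoancorin, an anchor of acellular gels on the non-sensory surface, was the second most counted gene of this list, with a log2 fold change of −0.54 and an adjusted p of 0.0776 (DESeq2).

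Of 8 otoconial matrix and mineral genes, 5 were tested, 1 was downregulated and 0 upregulated with DESeq2, with a median log2 fold change of −0.53, and at an unadjusted p under 0.05 there were 3 lower and 0 higher. Sparcl1, a matricellular protein gene that is also among the supporting cell markers, changed by −0.59 (SE 0.19) with an adjusted p of 0.0365 (DESeq2) and was not called by edgeR or with total-count scaling. Sparc, named after its values were seen, changed by −0.5849 (SE 0.18) with an adjusted p of 0.0255 (DESeq2). Its groups did not overlap in normalized counts, and it was not called because it fell just short of the fold threshold. Neither edgeR nor total-count scaling called Sparc. Spp1, which encodes the mineral-binding protein osteopontin and was the most counted of this list, had a log2 fold change of −0.53 and an adjusted p of 0.0502 (DESeq2). Its value is also the median of the list. The study used osteopontin as an HC label and treated Spp1 as an HC-specific gene, so Spp1 is not a gene of otoconial mineral alone. The Otop1 paralogue Otop3 was at 0 in every library, and Otop2 and Ahsg stayed under 10 counts.

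Of 12 NADPH oxidase subunits and relatives, 8 were tested and 0 were called with DESeq2 or edgeR, and 0 had an unadjusted p under 0.05 (DESeq2). Cyba, which encodes the p22phox subunit that NOX3 pairs with, had 1362, 1602 and 1074 normalized counts in Control and 1261, 1222 and 1461 in IDPN, with a log2 fold change of −0.03 (SE 0.19). Noxo1, which encodes the organizer subunit that works with NOX3 in otoconia formation and is named after its values were seen, had 1241, 1170 and 908 in Control and 1266, 1317 and 1317 in IDPN. The Noxo1 groups did not overlap, and its log2 fold change of 0.23 had an adjusted p of 0.56 (DESeq2). Rac1, a GTPase of oxidase complexes, was spread widely in Control, at 1212, 5933 and 10910, against 12410, 14000 and 13120 in IDPN, with a log2 fold change of 1.13 (SE 0.80) and an adjusted p of 0.52 (DESeq2). Noxa1, Nox1, Duox1 and Duox2 stayed under 10 counts.

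Of 12 genes for endolymph calcium and pH, 8 were tested, 1 was downregulated and 0 were upregulated with DESeq2 and with edgeR, and 2 lower and 0 higher had an unadjusted p under 0.05 (DESeq2). Atp2b2, which encodes the plasma membrane calcium pump of HC bundles, had 1036, 995 and 1326 normalized counts in Control and 547, 448 and 515 in IDPN, with a log2 fold change of −1.15 (SE 0.19) and an adjusted p of 1.8e-07 (DESeq2). The study chose Atp2b2 partly on these libraries, so its direction here is not independent evidence. Slc12a2, which encodes a chloride cotransporter, and Car2, which encodes a carbonic anhydrase, were the most counted of this list, with log2 fold changes of −0.54 (adjusted p of 0.151) and 0.01 (adjusted p of 0.991) by DESeq2. Among 8 genes that share the zona pellucida domain of the tectorins, the 2 tested, Eng and Tgfbr3, were not called with DESeq2 or edgeR and had an unadjusted p above 0.05, and Umod, Umodl1 and Gp2 were at 0.

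The cell types of the tissue were checked by summed normalized counts of marker genes over 9 lists, with a two-sided exact permutation test that cannot give p under 0.10 for 3 against 3 libraries. HC markers summed to 43192 to 47563 in Control and 27379 to 29829 in IDPN (exact p = 0.10, 0.30 after adjustment over the lists), with none at 0. DESeq2 called 8 of 12 lower, led by Ocm (log2 fold change −1.98) and Gfi1 (−1.21), against 7 with edgeR and 4 with total-count size factors. Among all genes tested, the shares called lower were 3.42%, 2.19% and 1.28% in this order, and those called higher were 2.32%, 1.02% and 3.64%. The share with an unadjusted p under 0.05 was 16.9% (DESeq2). Not called by DESeq2 were Myo7a (0.01), Espn (−0.18), Cib2 (−0.25) and Ush1c (−0.57, below the fold threshold). The study listed Ocm among its common downregulated genes partly on these libraries, so its direction here is not independent evidence. Supporting cell markers summed to 394596 to 606633 in Control and 300678 to 364156 in IDPN (exact p = 0.10, 0.30 adjusted), with Hes5 under 10 counts. DESeq2 called 2 of 11 tested lower, Gjb6 and Sparcl1, whereas edgeR called 0 and total-count size factors left 1, Gjb6. Most of this sum came from Gjb6, Sparcl1, Gjb2, Slc1a3 and Otoa, at Control means of 147200, 135500, 105500, 61810 and 50090 of 501995. Sox2, Jag1, Prox1, Lfng (log2 fold change 0.66) and Cyp26b1 (0.53) added little, overlapped between groups and were not called by DESeq2. Fgfr3 (−0.29) also added little and was not called. Its IDPN libraries were all below its Control libraries, though Control 2 and IDPN 2 nearly met, at 240.1 and 240.0. Dark and transitional cell markers overlapped between groups, at 54637 to 89863 against 55560 to 64484, with 0 of 10 called by DESeq2 or edgeR and 2 lower and 2 higher at an unadjusted p under 0.05. Melanocyte markers summed to 6056 to 14055 in Control and 14340 to 21804 in IDPN (exact p = 0.10, 0.30 adjusted) with 0 of 5 called by DESeq2 or edgeR and 3 higher at an unadjusted p under 0.05, but with total-count size factors 4 of the 5 were called higher. Sums of the stroma, macrophage, Schwann cell and neuron, endothelium, and bone and cartilage lists overlapped. The exception was the macrophage list with total-count scaling, higher in IDPN without overlap, at 2379 to 3068 against 1764 to 2223. Within these lists DESeq2 called Snap25 (log2 fold change −0.96), Nefm (−0.64), Nefl (−0.59), Kdr (−1.14) and Pou3f4 (−0.72) lower and Sox10 (0.80) higher. Of these, edgeR left out Nefm only. With total-count size factors Sox10 stayed called, Col1a2 was called higher and the genes called lower were not called. Coch made up most of the stroma sum, with a Control mean of 2113000 of 2189100. The HC and supporting cell sums were lower in the same libraries in which Nox3 and Otog were lower, and their part in these results was not tested. From the counts of bulk tissue alone, fewer cells of a type and less RNA per cell cannot be told apart. The study gave a rough count of hair bundles in the utricle centre, taken from mice of its earlier work. Bundle number was unchanged after 8 weeks of IDPN, although HCs being extruded were seen.

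For each gene with a mean of at least 50 normalized counts, the 3 genes with the most similar course over the 6 libraries were taken by Pearson's r of log2(normalized count + 1) among 11131 genes, as a description only, since the points share library scaling and the group difference. Nox3 was closest to Adssl1 (r = 0.995), Fto (0.993) and Glrx2 (0.990), and Otog to Aga (0.996), Abcd2 (0.988) and the HC marker Calb2 (0.985). Oc90 was closest to Upp1 (0.994), Mei1 and Sorcs1, Otol1 to the complement gene C4b (0.994), Sugt1 and Gadd45b, and Otop1 to Ift88 (0.989), Slc16a1 and Gpbp1. Otogl was closest to Setmar (0.990), Cds1 and Ppp1r26, Tecta to Gtf3c4 (0.997), Man2a2 and Ttbk2, and Tectb to Fblim1 (0.973), Thumpd3 and Tspan8. None of the 9 genes was among the 3 closest of another. With so few places among 11131 genes, this does not show whether the 9 genes vary together. Ceacam16 could not appear, because the compared genes had a mean of at least 100 normalized counts.

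**Figure D5:**
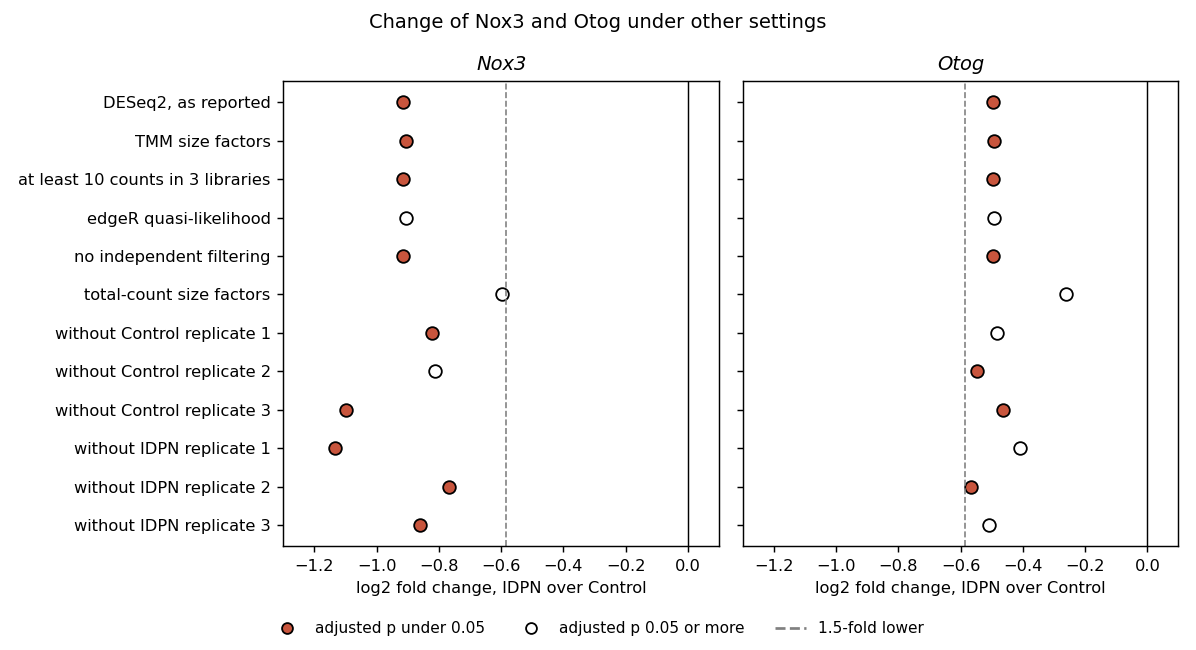
Log2 fold change of Nox3 and Otog (IDPN over Control) under the reported fit and 11 other settings, with filled points for an adjusted p under 0.05 and a dashed line at 1.5-fold lower. All points lie below 0, Nox3 moves from −0.60 with total-count size factors to −1.13 without IDPN 1, and Otog from −0.26 to −0.57.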

How the data were processed

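RNA from 3 Control and 3 IDPN animals, 6 to 11 ng per library, was converted to cDNA under an oligo-dT SMART-seq2 protocol with 8 cDNA and 12 library amplification cycles and no molecular identifiers, so counts are not independent molecules. The authors aligned paired reads with STAR 2.5.3a to GRCm38 and estimated gene counts with RSEM 2.3.0 on GENCODE annotation, and the deposited values are these expected counts, as whole numbers with no normalization or filter. Labels gave no replicate numbers, so libraries were numbered in accession order within a group.

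The whole table was fitted with the DESeq2 Wald test (DESeq2 1.42.0 under R 4.3.3). It used median-of-ratios size factors, independent filtering at 0.05 and no covariate. The tool and both thresholds (adjusted p and fold) follow the study's methods, which leave these settings unstated. P-values were adjusted by Benjamini-Hochberg over all genes tested. edgeR 4.0.16 with TMM and filterByExpr was the first of 14 alternatives: TMM or total-count size factors, at least 10 counts in 3 libraries, no independent filtering, no Cook's filter, a test against a fold of 1.5, a fold above 2, and each library left out in turn. The code was tested on simulated counts. Exact permutation tests used scipy 1.17.1. Exon lengths and coordinates came from a later GENCODE release on the same build, and promoters from RefSeq.

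The 9 genes and the lists were chosen with earlier results of these data known. All 9 are named. From each list, the rule names called genes and the 2 of highest mean count. Not every marker gene that met the rule is reported. Some list and marker genes outside the rule, such as Noxo1, Sparc and Myo7a, were named after their values were seen.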

Additional observations from a re-analysis of the deposited data

How the results depend on the processing

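The 2 groups were different animals and the labels state no pairing, so no paired analysis was made. Over 14 alternatives, Oc90, Otol1, Otop1, Otogl, Tecta, Otog and Ceacam16 kept their direction and were not called, and Tectb reversed to 0.048 (log2) with total-count size factors. The number of the 9 genes called lower was 1 as reported and 0 with edgeR, with a test against a fold of 1.5, with total-count size factors and with a fold above 2, and 0 to 1 when each library was left out. The log2 fold change of Nox3 was −0.91 with edgeR (adjusted p of 0.0844), −0.91 against a fold of 1.5 (adjusted p of 1), −0.91 at a fold above 2, which it does not reach, and −0.60 with total-count size factors (adjusted p of 0.172); leaving out each library gave −1.13 to −0.77, and Control 2 alone ended the call (−0.81). The median over the 9 genes was −0.13 with total-count size factors and −0.50 to −0.065 when each library was left out, nearest 0 without Control 3. Acellular matrix genes called lower numbered 2 as reported, 1 with edgeR, against a fold of 1.5, with total-count size factors and at a fold above 2, and 1 to 3 when each library was left out (3 without Control 3 or IDPN 2, 1 without any other), and 1, Col9a3, was called higher with total-count size factors. Otoconial matrix and mineral genes called lower numbered 1 as reported, 2 with the filter of 10 counts, 0 with edgeR, without independent filtering, against a fold of 1.5, with total-count size factors and at a fold above 2, and 0 to 3 when each library was left out (3 without Control 3 or IDPN 2, 0 without any other). Endolymph genes called lower numbered 1 as reported, 0 against a fold of 1.5, and 1 to 2 when each library was left out (2 without IDPN 3). The causes were not tested. With 3 animals per group, an exact test of a single value cannot give p under 0.10, and Ceacam16 was limited by its 10 to 65 raw counts.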
